A study of Mus musculus with 6 samples.

Results

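The genes described here encode the receptors of Wnt proteins and the machinery that carries the Wnt signal into the nucleus. The list held 43 genes, fixed by name, all of which were found in the mouse gene table of 21896 protein-coding genes. Each gene was looked up in the authors' list that ties Bcl6 peaks to genes, and every peak listed for it was taken from the authors' peak table. Of the 43 genes, 21 had a listed peak (48.8%) and 22 had none, and the 21 genes shared out 26 distinct peaks.

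Wnt proteins are secreted lipid-modified signals that bind Frizzled receptors together with the co-receptors Lrp5 and Lrp6. Without a ligand, a complex built on Axin and Apc lets casein kinases and Gsk3 phosphorylate beta-catenin, which is then destroyed. With a ligand, Dishevelled is recruited to the receptors, the complex is inhibited, and beta-catenin enters the nucleus to activate genes with TCF and LEF factors. In the developing cortex this pathway is known for keeping progenitors in the cell cycle and for patterning the dorsal telencephalon. Bcl6 is a zinc finger repressor that is known to drive cortical progenitors towards neurons.

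The data were chromatin immunoprecipitation and sequencing (ChIP-seq) of A2 lox.Cre Bcl6 cells, mouse embryonic stem cells with a tetracycline-inducible Bcl6 transgene, turned into cortical progenitors. The study had 3 Bcl6 ChIP libraries and 3 input DNA libraries, all from cells at differentiation day 12 with Bcl6 induced for 24 h by doxycycline at 1 µg/ml. Both groups thus carried the transgene and had its induction, and both had been differentiated with the hedgehog inhibitor cyclopamine at 400 ng/ml. Since uninduced cells were not analysed here, transgenic and endogenous Bcl6 cannot be told apart. Peaks were called by the authors on pooled libraries, 3 per group, so none of the values has a replicate error, and no test between genes was run. After removal of duplicate positions the pooled ChIP held 11718276 tags and the pooled input 5048582. The files hold binding only, and the identity of the cells was not checked against expressed markers.

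The share of Wnt receptor and transducer genes with a listed peak, 48.8%, stood beside 20.0% of all protein-coding genes (4390 of 21896). A peak centred within 1000 bp of the listed transcription start site (TSS), called a promoter peak below, was found in 11 of the 43 genes (25.6%) and in 10.8% of all protein-coding genes. At least 2 peaks were listed for 4 of the 43 genes (9.30%), against 4.09% of all protein-coding genes. These shares are descriptions of a list chosen with earlier results of the same data known, and they are not an independent sign of a preference. The authors' list lets a gene collect peaks from up to 1000000 bp away when no other gene lies between, so a listed peak can be far from its gene.

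Peaks were spread unevenly over the steps of the pathway. Genes for TCF/LEF factors, their coactivators and Sp5 had a listed peak in 6 of 9 cases. Modulators of the receptors at the cell surface had one in 3 of 5 cases, all at the promoter. Beta-catenin and its destruction complex had one in 5 of 9 cases, of which 1 was a promoter peak. For 2 more, Ctnnb1 and Apc2, the peak covered an annotated start but was centred over 1000 bp from the listed TSS. Dishevelled and Naked genes had one in 2 of 5 cases, none of them at the promoter. Co-receptors and alternative receptors had one in 2 of 5 cases. Frizzled receptors were the group with the lowest share, 3 of 10 (30.0%). Over all protein-coding genes the share was 20.0% for a listed peak and 10.8% for a promoter peak. The only peaks of Fzd3, Ryk, Dvl2, Nkd1, Apc2 and Gsk3a were nearer to the listed TSS of another gene. By nearest listed TSS, the Dishevelled and Naked group thus had no gene with a peak. With 5 to 10 genes in a group, these counts were not tested against each other.

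**Figure D1:**
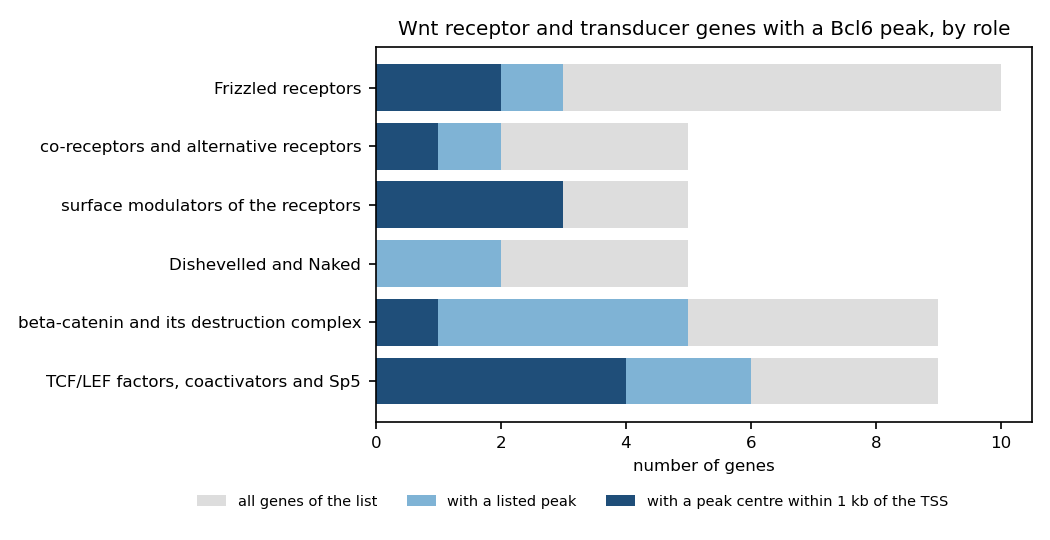
Number of genes in each role group (horizontal axis), as all genes of the list (grey), those with a listed Bcl6 peak (light blue) and those with a peak centre within 1 kb of the TSS (dark blue). TCF/LEF factors, coactivators and Sp5 had 6 of 9 genes with a peak, and Frizzled receptors 3 of 10.

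Peaks covered the annotated promoters of several of these genes. The following are the 250 bases before the RefSeq start in the GRCm38.p6 assembly, the build the authors call mm10, read 5′ to 3′ on the strand of the gene. They are a choice from the genes with a RefSeq promoter under a peak: Bcl9, with the highest fold enrichment among these, Fzd5, Lgr4 and Ctnnb1, with summits at most 50 bp from the start, Fzd7, with the lowest fold of all peaks, and Sp5, which held both motif matches. The Bcl9 window is chr3:97227365-97227614, minus strand, and lies inside the longest annotated extent of that gene. The Fzd5 window is chr1:64737751-64738000, minus strand. The windows of Lgr4 (chr2:109917397-109917646), Ctnnb1 (chr9:120933150-120933399), Fzd7 (chr1:59481897-59482146) and Sp5 (chr2:70474673-70474922) are on the plus strand. Capitals in Sp5 mark TTCCTAGAG and CTTTGAT.
Bcl9: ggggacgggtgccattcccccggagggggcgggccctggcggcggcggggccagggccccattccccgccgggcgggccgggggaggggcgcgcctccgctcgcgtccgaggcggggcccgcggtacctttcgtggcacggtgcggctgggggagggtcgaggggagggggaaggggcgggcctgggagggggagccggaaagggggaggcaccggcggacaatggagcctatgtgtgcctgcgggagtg
Fzd5: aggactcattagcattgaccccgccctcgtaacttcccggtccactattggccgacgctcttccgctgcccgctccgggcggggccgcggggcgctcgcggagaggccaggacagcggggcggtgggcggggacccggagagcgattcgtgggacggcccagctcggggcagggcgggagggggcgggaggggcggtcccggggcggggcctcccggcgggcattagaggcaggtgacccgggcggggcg
Lgr4: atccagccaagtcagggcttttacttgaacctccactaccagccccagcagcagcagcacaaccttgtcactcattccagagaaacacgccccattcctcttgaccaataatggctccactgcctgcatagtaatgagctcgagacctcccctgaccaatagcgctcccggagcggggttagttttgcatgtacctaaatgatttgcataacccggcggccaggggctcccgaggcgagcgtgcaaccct
Ctnnb1: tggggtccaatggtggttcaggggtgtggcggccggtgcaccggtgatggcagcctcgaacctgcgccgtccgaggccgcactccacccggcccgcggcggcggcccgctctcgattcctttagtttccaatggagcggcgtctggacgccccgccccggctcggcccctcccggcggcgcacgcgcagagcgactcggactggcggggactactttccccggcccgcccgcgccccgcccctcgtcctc
Fzd7: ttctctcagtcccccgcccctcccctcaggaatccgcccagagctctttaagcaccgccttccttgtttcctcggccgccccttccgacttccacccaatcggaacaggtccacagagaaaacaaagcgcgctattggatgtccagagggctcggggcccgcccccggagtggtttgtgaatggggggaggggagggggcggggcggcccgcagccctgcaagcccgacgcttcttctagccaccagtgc
Sp5: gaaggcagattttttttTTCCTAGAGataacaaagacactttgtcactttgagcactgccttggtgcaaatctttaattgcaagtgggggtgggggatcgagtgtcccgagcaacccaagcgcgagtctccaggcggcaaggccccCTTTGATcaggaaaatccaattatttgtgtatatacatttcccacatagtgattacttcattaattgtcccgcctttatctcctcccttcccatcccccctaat

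RefSeq promoters, of 250 bases before and 50 after a start, were matched for 30 of the 43 genes. A peak overlapped such a promoter in 9 of them, through 13 annotated starts. Kremen1, Znrf3, Lrp6 and Csnk1d had a promoter peak but no matched RefSeq promoter. The base composition, motif and summit results therefore do not cover these genes. These 13 promoters had a median of 73.2% G and C and 21 CpG dinucleotides in the 250 upstream bases, against 64.8% and 20 for the 2905 promoters that any peak overlapped, and 52.4% and 6 for all 32851 promoters. The 45 matched promoters of the 30 genes, with or without a peak, had 66.0% and 15. Pygo2, Ctnnb1 and Tcf7 entered the median of the 13 with several starts under the same peak, so the 13 values are not independent. In the most upstream window of each gene, G and C made up 46.0% in Sp5, 54.8% in Apc2, 55.6% in Lgr4 and 56.8% in Pygo2. They made up 65.2% in Fzd7 (17 CpG), 74.8% in Ctnnb1, 76.0% in Tcf7, 76.4% in Fzd5 and 79.2% in Bcl9. Among those printed, Bcl9 (79.2%) and Fzd5 (76.4%) were the richest in G and C, and Sp5 was the poorest at 46.0% with 6 CpG.

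Motifs were searched on both strands of the 300 bases. The Bcl6 motif TTCCTAGAA was in 0 of the 13 promoters, in 0.310% of the promoters that any peak overlapped and in 0.411% of all promoters. The wider form TTCNNNGAA, which STAT factors also bind and which includes every TTCCTAGAA, was in 0 of the 13, in 6.40% of the promoters that any peak overlapped and in 8.30% of all promoters. The TCF/LEF motif CTTTGAT was in 1 of the 13, the promoter of Sp5, where it began 104 bases before the start. It was in 2.07% of the promoters that any peak overlapped and in 3.73% of all promoters. With 1 mismatch allowed, a setting chosen after the sequences were seen, TTCCTAGAA matched 1 of the 13, again Sp5, as TTCCTAGAG beginning 233 bases before the start. It then matched 6.13% of the promoters that any peak overlapped and 8.63% of all promoters. The summit of the Sp5 peak lay 907 bp before the start, outside the printed window. Where no match was found, it says only that these letters are not in this window.

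The plot of peaks around annotated starts shows that 6 of the 9 summits lay within 250 bp of a start. The 9 genes were taken because a peak overlapped a promoter window, which by itself favours summits near a start. No matching share was computed for the other promoters under a peak. The summit was 2 bp from the start of Lgr4, 7 bp from that of Ctnnb1, 34 bp from that of Tcf7, 50 bp from that of Fzd5, 74 bp from that of Pygo2 and 233 bp from that of Bcl9. Those of Fzd7 (313 bp), Apc2 (838 bp) and Sp5 (907 bp) lay farther upstream.

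**Figure D2:**
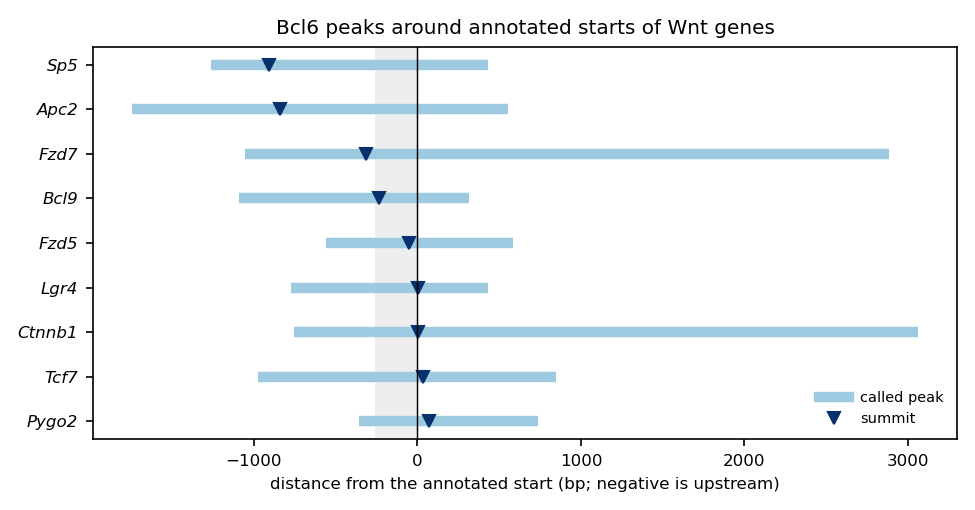
Called Bcl6 peaks (bars) and their summits (triangles) by distance in bp from the annotated RefSeq start, for the 9 genes with an annotated promoter under a peak; where a gene has several such starts, the most upstream is used. The grey band marks the 250 bases before the start; the summits of Lgr4 and Ctnnb1 are 2 and 7 bp from the start, and the peak of Ctnnb1 reaches 3059 bp into the gene.

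Among the receptors, Fzd7 was the only Frizzled gene with more than 1 listed peak. Fzd7 encodes a Frizzled receptor known from stem and progenitor cells. Its promoter peak, on chromosome 1 from 59481092 to 59485032, had 133 tags over 3941 bp and a fold enrichment of 7.98, the lowest of all 3878 peaks. Its p-value score (−10 log10 of the peak caller's p) was 50.95, close to the cutoff of 50 that all peaks had passed. The second Fzd7 peak was narrow and farther away, with 28 tags over 852 bp, 33.5-fold and 26.5 kb downstream of the TSS. This second peak was nearer to the TSS of Gm973, at 7656 bp.

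Fzd5, a Frizzled gene known from eye and forebrain development, had a peak on chromosome 1 from 64737164 to 64738307 that was centred 15 bp from its TSS. It held 64 tags (exact 95% Poisson interval 49.3 to 81.7) in 1144 bp and had 24.6-fold enrichment with a score of 63.75. Fzd3, which is known for its part in axon tract formation, was listed for a peak of 25.8-fold with 63 tags, 112 kb downstream of its TSS. That peak on chromosome 14, from 65149238 to 65150737, was nearer to Extl3, 51.9 kb upstream of it. Fzd5 thus carried the only Frizzled peak both at a promoter and above the median enrichment of all peaks, 21.3-fold.

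The co-receptor gene Lrp6, whose product pairs with Frizzled, had a peak of 21.3-fold at 202 bp from the TSS, equal to the median of all peaks. It spanned chromosome 6 from 134565711 to 134567711 and held 70 tags with a score of 92.65. Ryk, which encodes an atypical kinase receptor for Wnt, was listed for 1 of the stronger peaks, of 38.4-fold with 106 tags and a score of 168. It lay 108 kb upstream of Ryk, on chromosome 9 from 102725634 to 102728265, and 9281 bp downstream of the TSS of Amotl2. The authors' list assigned it to both genes, and the data do not say which one it belongs to.

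Of the 5 genes that modulate the receptors at the surface, Kremen1, Znrf3 and Lgr4 had a promoter peak, and Lgr5 and Rnf43 had no listed peak. Kremen1, which encodes a receptor for the Wnt antagonist Dkk1, had a peak of 41.2-fold centred 168 bp upstream of its TSS, on chromosome 11 from 5261166 to 5262287. Znrf3, which encodes a ubiquitin ligase that removes Frizzled from the membrane, lay next to it, with 14.6 kb between the genes. Its own promoter peak, from 5443957 to 5445599 on the same chromosome, was 183 kb from that of Kremen1 and had 13.3-fold enrichment.

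These neighbouring peaks differed 3.10 times in fold enrichment and 1.12 times in tag density. The Kremen1 peak held 55 tags (exact 95% Poisson interval 41.4 to 71.6) or 49.0 per kb, and the Znrf3 peak held 72 (56.3 to 90.7) or 43.8 per kb. The intervals cover counting error only. Lgr4, which encodes a receptor for R-spondins, had a peak of 17.0-fold centred 172 bp upstream of its TSS with 46 tags and a score of 52.49. Its summit was the closest to an annotated start of the 9 promoters.

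**Figure D3:**
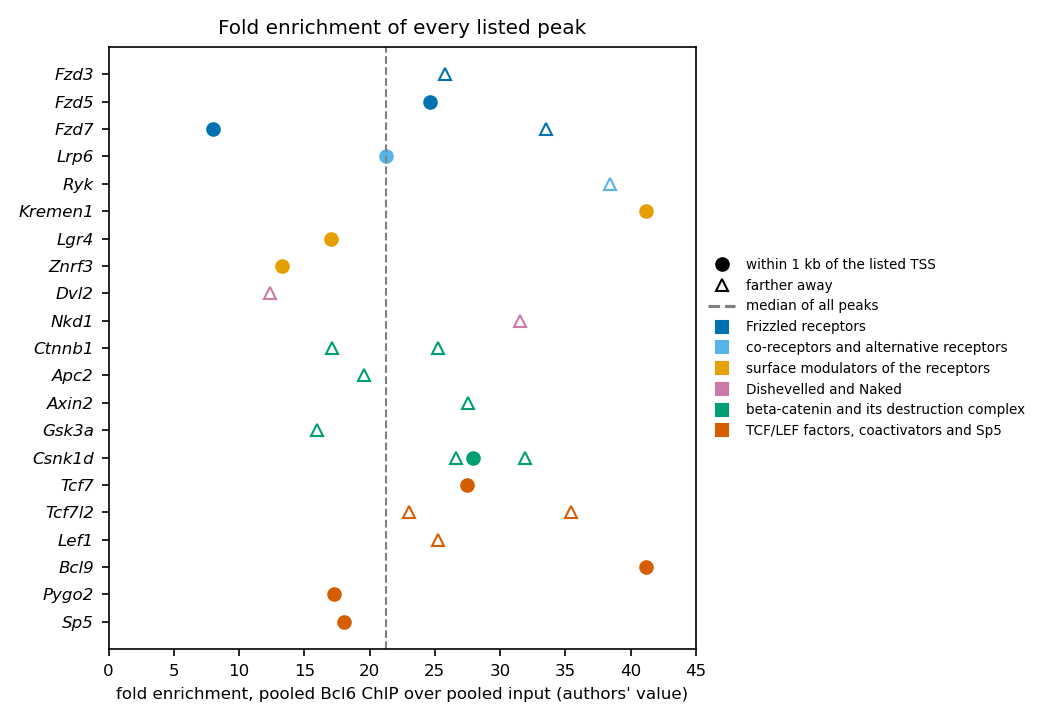
Fold enrichment of the pooled ChIP over the pooled input (horizontal axis, the authors' value) for each of the 26 peaks, by gene and coloured by role group. Filled circles are peaks within 1 kb of the listed TSS, open triangles lie farther away, and the dashed line is the median of all peaks (21.3-fold); Bcl9 and Kremen1 reach 41.2-fold and the promoter peak of Fzd7 is at 7.98-fold.

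In the cytoplasm, Dvl2 was the only Dishevelled gene with a listed peak. Dishevelled proteins link the receptors to the destruction complex. The peak, on chromosome 11 from 69994996 to 69997939, was wide (2944 bp), with 142 tags and 12.4-fold enrichment, 4128 bp upstream of Dvl2. It was centred 690 bp from the TSS of Phf23. Nkd1, which encodes a Dishevelled-binding inhibitor of the pathway, was listed for a narrow peak of 31.5-fold with 29 tags, 106 kb downstream of its TSS, past the 3′ end. Snx20 was nearer to it, at 8547 bp.

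Ctnnb1, the gene of beta-catenin itself, had the peak with the most tags of all 26. It held 215 tags (exact 95% Poisson interval 187 to 246) over 3814 bp, on chromosome 9 from 120932646 to 120936459, with 17.1-fold enrichment and a score of 160. Its summit lay 7 bp from the annotated start. Its centre was at 1152 bp because the peak ran into the gene, and it was therefore not counted as a promoter peak. Another Ctnnb1 peak, of 25.3-fold with 81 tags, lay 358 kb upstream and 3895 bp downstream of the TSS of the ribosomal protein gene Rpl14.

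Csnk1d, which encodes casein kinase 1 delta, collected 3 peaks, the most of the list. The peak at its promoter was centred 49 bp from the TSS and had 27.9-fold enrichment with 60 tags, on chromosome 11 from 120990560 to 120992002. A peak inside the gene had 31.9-fold with 96 tags at 28.4 kb downstream of the TSS. The third, beyond the end of the gene at 40.3 kb, had 26.6-fold with 45 tags. Both distant peaks were nearer to the TSS of Slc16a3, at 13.9 kb and 1909 bp. All 3 values exceeded the median of all peaks.

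Axin2, a scaffold of the destruction complex and a standard feedback target of Wnt signalling, had no promoter peak. It was listed for a narrow peak of 676 bp, 34.7 kb upstream on chromosome 11 from 108885355 to 108886030, with 28 tags (exact 95% Poisson interval 18.6 to 40.5) and 27.6-fold enrichment. Axin2 had the nearest TSS of that peak, and its other listed gene, Cep112, was 460 kb away. Apc2, the neural relative of Apc, was listed for a peak of 19.6-fold with 115 tags that lay 6459 bp upstream of the listed TSS and 2908 bp downstream of that of the ribosomal protein gene Rps15. The same peak, on chromosome 10 from 80294213 to 80296509, covered the most upstream annotated start of Apc2. Gsk3a, which encodes a kinase of beta-catenin, was listed for a wide peak of 16.0-fold with 117 tags, 11.9 kb upstream, that was centred 1035 bp from the TSS of Erf.

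In the nucleus, Bcl9 and 3 of the 4 TCF/LEF genes had peaks. Bcl9 encodes the adaptor that joins beta-catenin to Pygopus. Its peak, centred 387 bp upstream of the listed TSS on chromosome 3 from 97227047 to 97228456, tied with that of Kremen1 for the highest fold of the list, 41.2, at rank 234 of 3878. It also had the highest score, 186, and the highest tag density, 61.7 per kb (87 tags in 1410 bp). Its density was above that of 92.4% of all peaks.

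Tcf7, which encodes a TCF factor best known from T cells, had a promoter peak of 27.4-fold with 71 tags and a score of 130, centred 508 bp upstream of the listed TSS. Tcf7l2, another TCF factor, had a peak of 23.0-fold with 52 tags at 1754 bp downstream of its TSS, and a narrow one of 35.5-fold with 31 tags 153 kb upstream. Lef1, whose product is needed for hippocampal development, had 1 peak of 25.3-fold with 35 tags, 8100 bp upstream on chromosome 3 from 131101913 to 131102829. Lef1 had the nearest TSS, and the other gene listed for it was Rpl34, 372 kb away. Tcf7l1 had no listed peak.

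Pygo2, which encodes a Pygopus coactivator, had a promoter peak of 17.3-fold with 59 tags and a score of 57.31. Sp5, a zinc finger factor that is a direct Wnt target in many embryonic tissues, had a promoter peak of 18.0-fold on chromosome 2 from 70473661 to 70475356. With 44 tags over 1696 bp it had 25.9 tags per kb, the lowest density of the 26 peaks and above that of 0.593% of all peaks. The promoter peaks of Pygo2 and Sp5 thus had similar folds at densities of 53.8 and 25.9 tags per kb.

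Over the 26 peaks the median fold enrichment was 25.3 (quartiles 17.5 and 30.6, range 7.98 to 41.2), against 21.3 over all 3878 peaks (quartiles 16.8 and 27.2, range 7.98 to 269). Within 1000 bp of a listed TSS the medians were 21.3 for these genes and 20.3 for all peaks. Beyond 1000 bp they were 25.8 and 21.9. Of the 26, 0 exceeded 50-fold, against 121 of all 3878 peaks. So few peaks reached that level that the 0 does not set these genes apart. The top decile of all peaks began at 35.5-fold, and 4 of the 26 (15.4%) were in it. The median score was 81.1 against 71.7, the median tag count 63.5 against 58, and the median width 1562.5 bp against 1405 bp. Tag density was 39.6 per kb at the median of the 26 and 40.0 per kb at that of all peaks. A width over 2000 bp was found for 8 of the 26 (30.8%), against 22.8% of all peaks. Every one of the 26 had an empirical false discovery rate between 0.56 and 2.68%. Passing a 5% limit was general, since it moved the share of all protein-coding genes with a listed peak only from 20.0% to 19.9%.

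**Figure D4:**
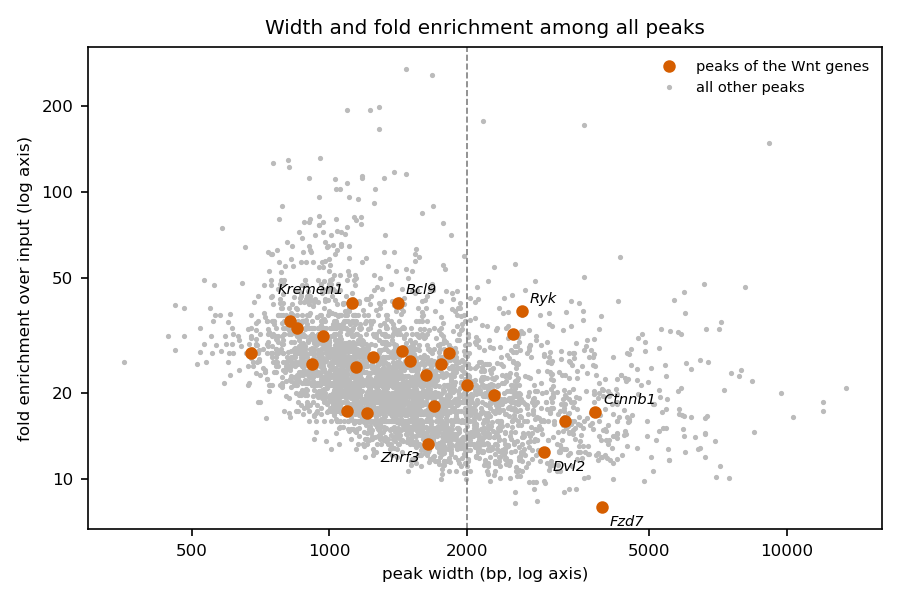
Fold enrichment over input (log axis) by peak width in bp (log axis) for the 26 peaks of the Wnt genes (orange) and all other peaks (grey), with a dashed line at 2000 bp. The promoter peak of Fzd7 (3941 bp, 7.98-fold) is the lowest of all points. No peak of the Wnt genes lies above 50-fold, where only 121 of all 3878 peaks lie.

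In position the 26 peaks were much like those of other genes. A promoter position was held by 11 of 26 (42.3%), against 41.7% of all 5713 pairs of a peak and a gene in the authors' list. Another 3 (11.5%) lay 1 to 5 kb away, against 10.5%, and 7 (26.9%) lay 5 to 50 kb away, against 26.7%. The remaining 5 (19.2%) were over 50 kb away, against 21.1%. Upstream of the listed TSS were 14 of the 26 and downstream were 12. Just inside the limit of 1000 bp was the Fzd7 peak at 915 bp, and just outside it the Ctnnb1 peak at 1152 bp.

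**Figure D5:**
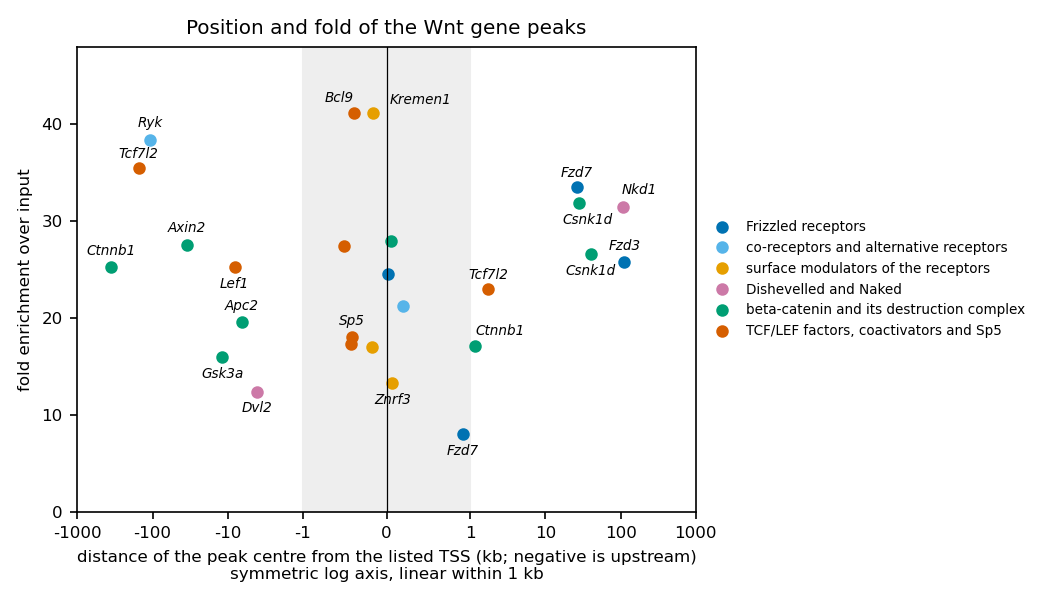
Fold enrichment over input by signed distance of the peak centre from the listed TSS (kb, symmetric log axis that is linear within 1 kb) for the 26 peaks, coloured by role group. The grey band marks the 11 promoter peaks, which span 7.98- to 41.2-fold; the peak of Ryk 108 kb upstream reaches 38.4-fold.

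Shared assignment was common in the authors' list as a whole. A further gene was listed for 15 of the 26 (57.7%), and at least 2 genes were listed for 1903 of all 3878 peaks (49.1%). For 10 of the 26 another gene had the nearer listed TSS, and no matching share was computed over all peaks. With each peak given only to its nearest listed TSS, 15 of the 43 genes (34.9%) had a peak, against 14.7% of all protein-coding genes. The 6 genes lost in this way were Fzd3, Ryk, Dvl2, Apc2, Gsk3a and Nkd1. Apc2 was lost by its listed TSS, although the peak covered its most upstream annotated start. By position alone, 16 of the 43 (37.2%) had a peak that overlapped the gene body or the 5000 bp around it, against 18.8% of all protein-coding genes. The count was also 16 with the peak centre in that region, against 18.4%. The 10 peaks nearer to another TSS had a median of 26.2-fold and a width of 2025.5 bp, against 23.8-fold and 1426.5 bp for the 16 nearest to a Wnt gene, and these medians were not tested. The peaks of Ctnnb1 next to Rpl14 and of Apc2 next to Rps15 lay within 5 kb of a ribosomal protein gene's TSS.

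The 22 genes without a listed peak differed widely in how far the nearest peak was. For 3 of them the edge of a peak lay under 10 kb from the gene. It was 0.915 kb from Dvl3, where a peak of 23.8-fold with 55 tags was centred 27 bp from the TSS of Ap2m1. It was 7.22 kb from the scaffold gene Axin1, where a peak of 27.7-fold belonged to Mrpl28, and 8.91 kb from Tcf7l1, where a peak of 12.4-fold belonged to Tgoln1. For 8 genes the gap was 10 to 100 kb. It was 12.7 kb for Dvl1, 47.4 kb for Fzd2, 59.0 kb for the casein kinase gene Csnk1e, 61.5 kb for Bcl9l, 71.2 kb for Lrp5, 79.5 kb for Fzd9, 86.7 kb for Apc and 87.4 kb for the stem cell marker gene Lgr5.

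For the other 11 genes the nearest peak was over 100 kb away. It was 159 kb from Fzd6, 172 kb from Gsk3b and from Pygo1, 311 kb from Rnf43, 404 kb from Fzd10, 437 kb from Ror1, 570 kb from Fzd4 and 785 kb from Ror2. No peak lay within 1 Mb of Fzd1, Fzd8 or Nkd2, whose nearest were 1105, 1732 and 2095 kb away. The receptor pairs thus split within families, with a promoter peak at Lrp6 and Lgr4 and no listed peak for Lrp5 and Lgr5. A gene without a listed peak is one to which the authors' list tied no called peak, and a called peak can still lie close by, as at Dvl3. The gaps were not computed for other genes without a listed peak, so long gaps cannot be called particular to these genes.

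The rest of the Wnt pathway was near the background. Of 67 other genes of the pathway, 14 had a listed peak (20.9%, against 20.0% of all protein-coding genes) and 8 a promoter peak (11.9%, against 10.8%). Wnt ligands had a listed peak in 4 of 19 cases, and genes of ligand secretion and secreted modulators in 1 of 19. Other intracellular and nuclear regulators had one in 4 of 20. Planar polarity genes had one in 5 of 9, the same count as beta-catenin and its destruction complex. The 5 with the highest enrichment were Porcn, which acylates Wnt proteins (78.0-fold, 764 bp upstream of the TSS), the Groucho corepressor gene Tle3 (37.2-fold, 536 kb downstream), the polarity gene Prickle1 (34.6-fold, 9 bp from the TSS), the corepressor gene Ctbp2 (34.0-fold, 100.2 kb upstream) and the polarity receptor gene Ptk7 (25.6-fold, 90 bp upstream). The difference between the 48.8% of the receptor and transducer genes and the 20.9% of these genes was not tested.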

How the data were processed

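The data were 2 processed files of the whole series, a peak table and a list that ties peaks to genes. Reads were aligned with Bowtie to mm10, per the submitters' processing notes. Per the file headers, MACS 1.4.2 called peaks from the merged ChIP reads with the merged input as control, at a p-value cutoff of 1e-05 and with at most 1 tag per position. Raw counts of pooled ChIP tags in each peak were deposited by the authors. Fold enrichment is a ratio over the local input background that the authors' peak caller computed. The p-value score was deposited as −10 log10 of the p-value, under a column name that a spreadsheet had overwritten; the order of the columns and the minimum identified it. The empirical false discovery rate was deposited as a percent. Genes were assigned by the authors with GREAT 3.0.0, with domains of 5000 bp upstream and 1000 bp downstream extended by up to 1000000 bp, per the file headers. After pooling the values carry no spread between cultures.

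Peak numbers of the list were matched to the rows of the table, and symbols to RefSeq genes of GRCm38.p6 on the same chromosome (98.5% of 5801 pairs). On those 5713 pairs the TSS placed from the distance lay a median of 41 bp from an end of the named gene. Every gene of the list is reported, and of the other pathway genes the 5 with the highest fold are named. The genes and lists were chosen with earlier results of these data known. Analysis used Python 3.11.15 with pandas 2.3.3 and scipy 1.17.1. The motif search and the gene overlap were tested on simulated data. Alternatives changed the peak threshold, width, window and gene assignment.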

Additional observations from a re-analysis of the deposited data

How the results depend on the processing

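With the 5% limit on the false discovery rate all counts stayed as reported, at 21 genes and 26 peaks. The share of all protein-coding genes hardly moved either, at 19.9% against 20.0% without the limit. Restricting to the peaks whose score reached the median left 11 genes with a listed peak, 6 with a promoter peak and 14 peaks, and 8 other Wnt genes; 25.6% of the 43 genes then had a listed peak, against 10.8% of all protein-coding genes. With the nearest listed TSS only, the 43 genes had 16 peaks. Within 5000 bp of the TSS they had 14 peaks, and 8 other Wnt genes had one. The number of genes with a listed peak was 16 with peaks at most 2000 bp wide (16.5% of all protein-coding genes) and 16 with overlap of the gene body or 5000 bp around it (18.8% of all protein-coding genes); the second count includes Dvl3, which has no listed peak. A promoter window of 2000 bp gave 13 genes (30.2%, against 11.6% of all protein-coding genes), and one of 5000 bp gave 14 (32.6%, against 12.8%). The median fold ranged from 19.7 to 26.2 under these settings. The lowest, for peaks centred within 5000 bp of the TSS, was below the median of all peaks, 21.3. The higher median of the 26 peaks thus depended on the setting. With 1 mismatch allowed, TTCCTAGAA was found in 1 of the 13 promoters under a peak, that of Sp5, against 0 without a mismatch. The smaller counts follow from fewer peaks or narrower windows. No paired analysis was possible because the authors pooled the libraries before calling peaks, and for the same reason no replicate could be left out. The fewest tags among the 26 peaks were 28 (Axin2 and the distant Fzd7 peak), where the relative counting error is widest.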
